A study of Mus musculus with 4 samples.

Results

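The 10 genes described here copper into, within and out of the cell, and were followed in Beta-TC-6 cells after depletion of NF45. They are Atp7a, Atp7b, Slc31a1, Slc31a2, Atox1, Ccs, Cox17, Sco1, Mt1 and Mt2. These make up 10 of the 11742 genes tested on the arrays. They were chosen by name, with the change of Atp7a between the groups already known, so the differences between the groups are given for them as a description with no test. Each had 1 probe set whose annotation named it and no other gene, and all 10 passed the filter on dim probe sets, which asked for a mean of 1.65 or more on the log2 scale over the 4 arrays. Beta-TC-6 cells are a mouse line derived from pancreatic beta cells, grown here in medium with high glucose. Of the 4 samples, 2 were transfected with a negative control siRNA (siNTC) and 2 with a mixture of RNAi duplexes against NF45 (siNF45), all with a lipid reagent, and total RNA of each was put on 1 Mouse Gene 2.1 ST array. No time after transfection is given in the sources used here, and nothing in them says that samples of the same group were separate transfections, so the spread between them may be technical.

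Copper is needed by a small set of enzymes and is toxic when free, so cells pass it from protein to protein. The importer Slc31a1 (CTR1) brings it in, and the P-type ATPases Atp7a and Atp7b pump it into the Golgi lumen or out of the cell. Chaperones carry it to superoxide dismutase, to the secretory pathway or, within mitochondria, to cytochrome c oxidase. Metallothioneins bind what is in excess, and in secretory cells Atp7a supplies copper to Pam, the enzyme that amidates peptide hormones.

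The regulatory sequences are shown for Atp7a and for the metallothionein genes Mt1 and Mt2, the members that hold the most copies of a metal response element core, the motif bound by the metal-sensing factor MTF1. They come from the RefSeq promoter table of mouse build GRCm38.p6, which holds 8 of the 10 genes and spans 250 bases before to 50 bases after the annotated start. Ccs and Cox17 were not found in it. The core was searched as TGCACNC or TGCGCNC on both strands, together with the E-box CACGTG, bound by basic helix-loop-helix factors and added after the sequences had been seen. Capitals mark both motifs, which overlap nowhere in these sequences, in the 250 bases before the start for Atp7a and Mt2 and in 25-base windows for Mt1.
Atp7a, chrX:106026974-106027223, plus strand: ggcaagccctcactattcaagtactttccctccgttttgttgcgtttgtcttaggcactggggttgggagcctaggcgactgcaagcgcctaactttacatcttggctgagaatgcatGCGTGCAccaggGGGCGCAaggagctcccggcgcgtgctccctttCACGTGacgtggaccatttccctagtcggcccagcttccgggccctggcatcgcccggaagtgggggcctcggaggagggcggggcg
Mt2, chr8:94172368-94172617, plus strand: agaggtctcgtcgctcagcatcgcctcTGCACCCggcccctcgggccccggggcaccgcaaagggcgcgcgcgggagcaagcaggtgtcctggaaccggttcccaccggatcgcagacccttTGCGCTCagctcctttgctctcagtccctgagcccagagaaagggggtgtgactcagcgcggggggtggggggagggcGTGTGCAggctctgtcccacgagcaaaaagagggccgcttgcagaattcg
Mt1 first window, chr8:94179057-94179081, plus strand: gtcccgctgTGCACACtggcgctcc
Mt1 second window, chr8:94179082-94179106, plus strand: agggagctcTGCACTCcgcccgaaa
Mt1 last window, chr8:94179100-94179124, plus strand: cccgaaaagTGCGCTCggctctgcc

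The Atp7a promoter held 2 core matches, both on the minus strand with first bases at -132 and -120, counted with the annotated start as 0, and 1 E-box at -87. Mt1 held 3 matches, of which 2 lay after the start, and Mt2 held 4, of which 1 lay after the start and is not printed. Atp7b and Slc31a2 each held 1 core match, Slc31a2 also held 1 E-box at its start, and Slc31a1, Atox1 and Sco1 held neither motif. Of the 32851 promoters in the table, 25.7% had at least 1 core match, 7.11% at least 2, 1.97% at least 3 and 0.517% at least 4, and 7.15% had an E-box. A match describes the letters in this window and is not evidence of a bound site.

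The knocked-down gene itself, Ilf2, which encodes NF45, had log2 values of 5.79 and 5.98 in siNTC and of 3.67 and 3.77 in siNF45, 4.48-fold lower in siNF45 with a limma adjusted p of 0.020. Of 14 beta cell markers, 12 had a probe set and 11 passed the filter, with a median difference of -0.05. Those 11 ran from -0.435 for Pcsk1 to 0.175 for Ins2 and Nkx2-2. The summed linear level of the 12 lay between 11.4 and 11.5 (log2) on all arrays. This sum weighs the brightest, Iapp, most. Ucn3, a marker of mature beta cells, was below the filter. Of 7 markers of other islet cells, 6 had a probe set and 5 passed, and their summed level was 9.67 and 9.34 in siNTC and 8.98 and 8.88 in siNF45. The 5 that passed had a median difference of -0.39, with Sst at -0.89, Irx1 at -0.55, Irx2 at -0.39, Gcg at -0.02 and Ppy at 0.52. Of 7 exocrine and duct markers 1 passed, with summed levels of 4.66 and 4.53 in siNTC and 4.86 and 4.88 in siNF45, and of 10 endothelial, immune and mesenchymal markers 3 passed, with 4.84 and 4.92 against 4.77 and 4.80. The part of these other markers in the copper gene values was not tested, and in a bulk sample fewer cells of a type and less RNA per cell cannot be told apart.

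Atp7a stood highest of the copper genes in its difference between the groups. Its log2 values were 6.42 and 6.39 in siNTC and 7.30 and 7.35 in siNF45. Both siNF45 arrays were high and both siNTC arrays low, with no overlap, and arrays of 1 group lay within 0.05 of each other. The mean went from 6.41 ± 0.02 to 7.33 ± 0.04 (SD, n = 2), a difference of 0.92 on the log2 scale (SE 0.12), or 1.89-fold. This is the value that led to the choice of these genes. Of the 11742 genes tested, 29 had a higher difference, and the median over all of them was -0.07.

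**Figure D1:**
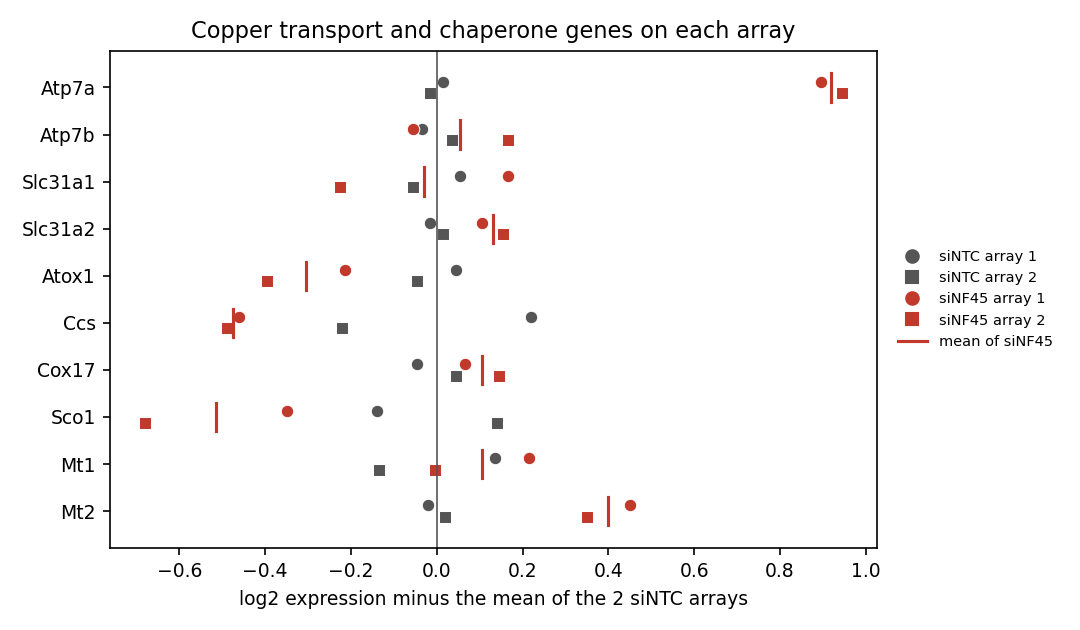
Log2 expression of the 10 copper genes on each of the 4 arrays, as the distance from the mean of the 2 siNTC arrays of the same gene (x axis), with grey symbols for siNTC, red symbols for siNF45 and a red bar at the siNF45 mean. Both siNF45 arrays of Atp7a lie near 0.92, and the siNF45 means of the other 9 genes lie between -0.52 for Sco1 and 0.40 for Mt2.

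The other 9 genes had a median difference of 0.06, between -0.52 and 0.40, which puts Atp7a 0.87 above that median. Over all 10 genes, both siNF45 arrays were above both siNTC arrays for 4 genes (Atp7a, Slc31a2, Cox17 and Mt2), below both for 3 (Atox1, Ccs and Sco1), and the groups overlapped for 3 (Atp7b, Slc31a1 and Mt1). Among all genes tested the groups were separated upward in 15.2% and downward in 32.6%. Since the members were chosen with this contrast known, nothing is read from their count.

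Atp7b, the copper ATPase mutated in Wilson disease, read 2.34 and 2.41 in siNTC and 2.32 and 2.54 in siNF45, so that the groups overlapped. Its difference was 0.06 (SE 0.13), and without siNF45 replicate 2 it was -0.06. The values of Atp7b lay less than 1 log2 unit above the filter.

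Before any further normalization, the genes of copper entry were close to 0 in their differences. Slc31a1, the high-affinity importer, read 5.32 and 5.21 in siNTC and 5.43 and 5.04 in siNF45. The siNF45 arrays lay on either side of both siNTC arrays, 0.39 apart, and the difference of -0.03 (SE 0.17) turned to 0.03 after quantile normalization and to 0.10 after centring of the arrays. Slc31a2 (CTR2), a related protein of intracellular membranes, read 4.50 and 4.53 in siNTC and 4.62 and 4.67 in siNF45. Its groups did not overlap, and the difference was 0.13 (SE 0.12). It was 0.20 after quantile normalization and 0.26 after centring, which adds 0.13 to every gene.

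Of the 4 chaperones, 3 had lower values on both siNF45 arrays than on both siNTC arrays, and Cox17 higher ones, where 32.6% and 15.2% of all genes tested were separated in these directions. Atox1, which hands copper to Atp7a and Atp7b, read 2.98 and 2.89 in siNTC and 2.72 and 2.54 in siNF45. Both siNF45 arrays were low, and the difference was -0.31 (SE 0.13), the opposite sign to the pump it serves, or -0.18 after centring. Ccs, which loads copper into superoxide dismutase, read 2.77 and 2.33 in siNTC and 2.09 and 2.06 in siNF45. Both siNF45 arrays were lower, but the siNTC arrays were 0.44 apart, and the difference of -0.48 (SE 0.17) was -0.26 without siNTC replicate 1 and -0.70 without siNTC replicate 2. Both siNF45 values of Ccs and its value in siNTC replicate 2 lay less than 1 log2 unit above the filter, as did that of Atox1 in siNF45 replicate 2. Sod1, the enzyme that Ccs serves, differed by -0.05 (95% interval -0.41 to 0.32).

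In the mitochondrial branch, Cox17 hands copper to Sco1 within the intermembrane space, and Sco1 passes it on to cytochrome c oxidase. Cox17 read 4.45 and 4.54 in siNTC and 4.56 and 4.64 in siNF45. The groups were separated by 0.02, and the difference was 0.11 (SE 0.12), or 0.06 without siNTC replicate 1 and 0.24 after centring. Sco1 read 2.93 and 3.21 in siNTC and 2.72 and 2.39 in siNF45. Its siNF45 arrays were both below its siNTC arrays, with a difference of -0.52 (SE 0.17), the lowest of the 10 genes, and 6.66% of all genes tested had a lower one. The siNTC arrays of Sco1 were 0.28 apart and the siNF45 arrays 0.33. Its difference was -0.68 without siNF45 replicate 1 and -0.35 without siNF45 replicate 2, whose value lay less than 1 log2 unit above the filter.

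The metallothioneins Mt1 and Mt2, neighbours on chromosome 8 that buffer copper and zinc, differed in how far the groups separated. Mt2 read 9.73 and 9.77 in siNTC and 10.2 and 10.1 in siNF45. Both siNF45 arrays were high with no overlap, and the difference was 0.40 (SE 0.12), or 1.32-fold, the highest after Atp7a. Mt1 read 8.41 and 8.14 in siNTC and 8.49 and 8.27 in siNF45. Its arrays overlapped, with replicates 0.27 and 0.22 apart, and the difference of 0.11 (SE 0.15) turned to -0.03 without siNTC replicate 2 and to -0.005 without siNF45 replicate 1. Whether the differences of Mt1 and Mt2 were unequal was not tested.

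**Figure D2:**
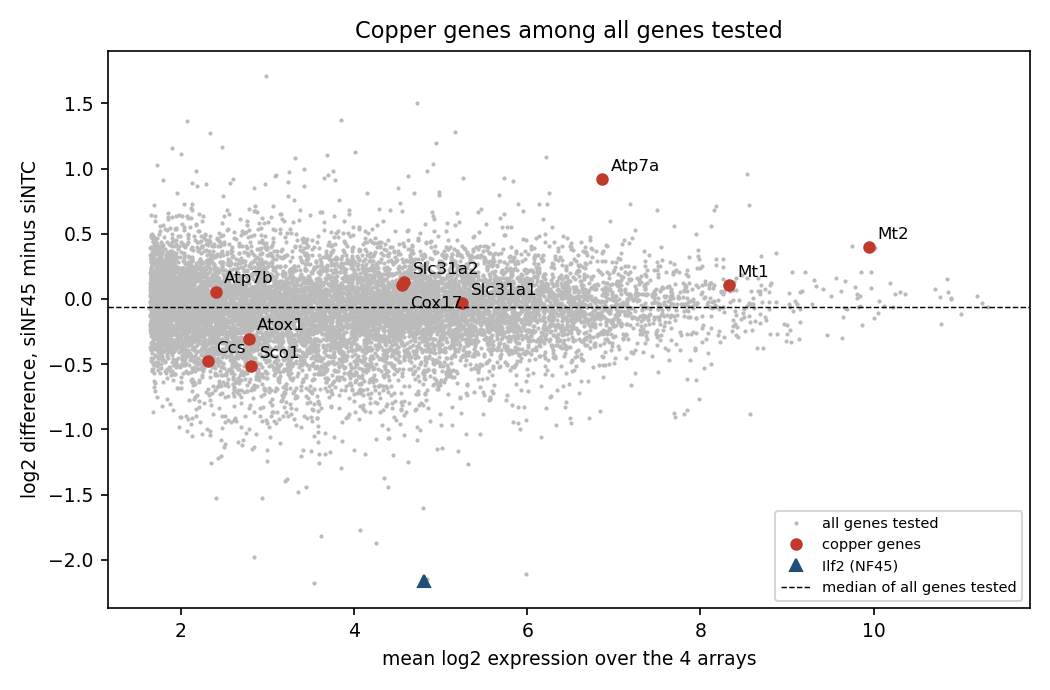
Difference between siNF45 and siNTC (y axis, log2) against the mean log2 expression over the 4 arrays (x axis) for the 11742 genes tested (grey), with the 10 copper genes in red, Ilf2 as a blue triangle and the median of all genes, -0.07, as a dashed line. Atp7a lies at the upper edge of the cloud, Mt2 above most genes of its brightness, and Atox1, Ccs and Sco1 on the dim, lower side.

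The wider machinery around these genes was described through 8 lists of 155 genes, none of them among the 10, of which 103 were tested. In limma, 0 of the 103 passed an adjusted p of 0.05 over all genes, a threshold that 0.0852% of all genes tested passed. At an unadjusted p under 0.05, 5 were higher and 18 lower, or 4.85% and 17.5%, where all genes tested gave 4.02% and 13.2%. Of the 18 lower, 10 came from 1 list, the 19 tested P-type ATPases other than Atp7a and Atp7b. The median difference of the 103 genes was -0.08, beside -0.07 for all genes tested.

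The copper-dependent enzymes were mostly dim in this cell line. Of 17 in the list, 3 were tested, and no member passed. Pam, the peptide-amidating enzyme of secretory granules, read 6.99 and 6.93 in siNTC and 6.34 and 6.14 in siNF45. Both siNF45 arrays were low, and it differed by -0.72 (SE 0.13), the opposite sign to Atp7a, with a limma adjusted p of 0.104. Aoc2, an amine oxidase, read 1.92 and 1.95 in siNTC and 2.15 and 2.17 in siNF45, all less than 1 log2 unit above the filter. Its difference was 0.23 (SE 0.12), and Sod1 is given above.

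Genes that route the copper ATPases between the Golgi and the cell surface showed small differences. Of 21 genes in this list, which holds COMMD and retromer genes and some others, 18 were tested, 8 above 0 and 10 below, with a median of -0.05, and 0 had an unadjusted p under 0.05 in limma. The members with the smallest p were Commd7 at -0.41 (SE 0.19), Commd2 at 0.30 (SE 0.15) and the sorting nexin Snx27 at -0.22 (SE 0.13). Of 12 genes for other routes of copper uptake, reduction and binding, 7 were tested and 6 lay below 0, as did 61.3% of all genes tested, with a median of -0.17 that was -0.04 after centring. App, the copper-binding amyloid precursor protein, differed by -0.70 (SE 0.16, limma adjusted p = 0.143), its relative Aplp2 by -0.43 (SE 0.18) and the metal transporter Slc11a2 by -0.27 (SE 0.21).

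Of 21 further assembly factors of cytochrome c oxidase, the mitochondrial destination of Cox17 and Sco1, 18 were tested, 8 above 0 and 10 below, with a median of -0.02 that turned to 0.03 after quantile normalization and to 0.11 after centring. The median of all genes tested was -0.0175 after quantile normalization and 0.065 after centring. Cox18, which inserts an oxidase subunit into the inner membrane, differed by 0.42 (SE 0.12, limma adjusted p = 0.202), Coa7 by -0.28 (SE 0.14) and Cox10 by -0.28 (SE 0.15). Of 12 genes of protein lipoylation, a modification of mitochondrial enzymes to which copper can bind, 10 were tested. At an unadjusted p under 0.05 in limma, 1 was higher and 2 were lower. This threshold was passed upward by 4.02% of all genes tested and downward by 13.2%. Dlat, a lipoylated pyruvate dehydrogenase subunit, differed by -0.45 (SE 0.13), the lipoyl synthase Lias by 0.48 (SE 0.15) and Gcsh by -0.42 (SE 0.14), and none passed.

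Zinc transporters, whose substrate shares the metallothioneins with copper, held the list member closest to Atp7a. Of 27 genes in the list, which also holds the metal-sensing factor Mtf1, 18 were tested. At an unadjusted p under 0.05 in limma, 1 was higher and 3 were lower. Over all genes tested, 4.02% were higher and 13.2% lower at this threshold. Slc39a8 (ZIP8), an importer of zinc and manganese, read 5.41 and 5.36 in siNTC and 6.32 and 6.26 in siNF45. It differed by 0.91 (SE 0.12, limma adjusted p = 0.077), with no overlap between the groups. Slc30a4 (ZnT4), an exporter into vesicles, read 6.17 and 6.28 in siNTC and 5.41 and 5.42 in siNF45, lower in both siNF45 arrays, with a difference of -0.81 (SE 0.12, limma adjusted p = 0.079). Slc39a13 (ZIP13) differed by -0.39 (SE 0.12). Mtf1 differed by 0.15 (95% interval -0.16 to 0.46) and Slc30a8, the zinc transporter of insulin granules, by 0.10 (95% interval -0.19 to 0.39), both looked at after their values were seen.

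Glutathione binds copper in the cytosol, and glutaredoxins act on protein thiols with its help. All 10 genes of this list were tested, 4 above 0 and 6 below. Glrx (glutaredoxin) read 6.0 and 5.69 in siNTC and 6.67 and 6.65 in siNF45. Both siNF45 arrays were high, and it differed by 0.82 (SE 0.15, limma adjusted p = 0.103). Gsr, the glutathione reductase, differed by -0.39 (SE 0.12) and Gclm by 0.22 (SE 0.14).

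Of the 35 other P-type ATPases, the enzyme family of Atp7a and Atp7b, 19 were tested, 13 below 0 and 6 above, where 61.3% of all genes tested lay below 0. Their median was -0.33, beside -0.07 for all genes tested. At an unadjusted p under 0.05 in limma 10 were lower and 1 higher, a threshold that 13.2% of all genes tested passed downward and 4.02% upward. None passed the adjusted threshold. Atp9b, Atp9a and Atp11a, of the phospholipid flippase subfamily, had the smallest p and differed by -0.90 (SE 0.18), -0.61 (SE 0.13) and -0.54 (SE 0.13), with limma adjusted p of 0.128, 0.132 and 0.149. The 1 higher was Atp2a3, a calcium pump of the endoplasmic reticulum, at 0.32 (SE 0.12), named after its value was seen. The median stayed below 0 in all 12 alternatives, between -0.34 and -0.13. Among these, a trend, robust eBayes and the replicate block could not change it.

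**Figure D3:**
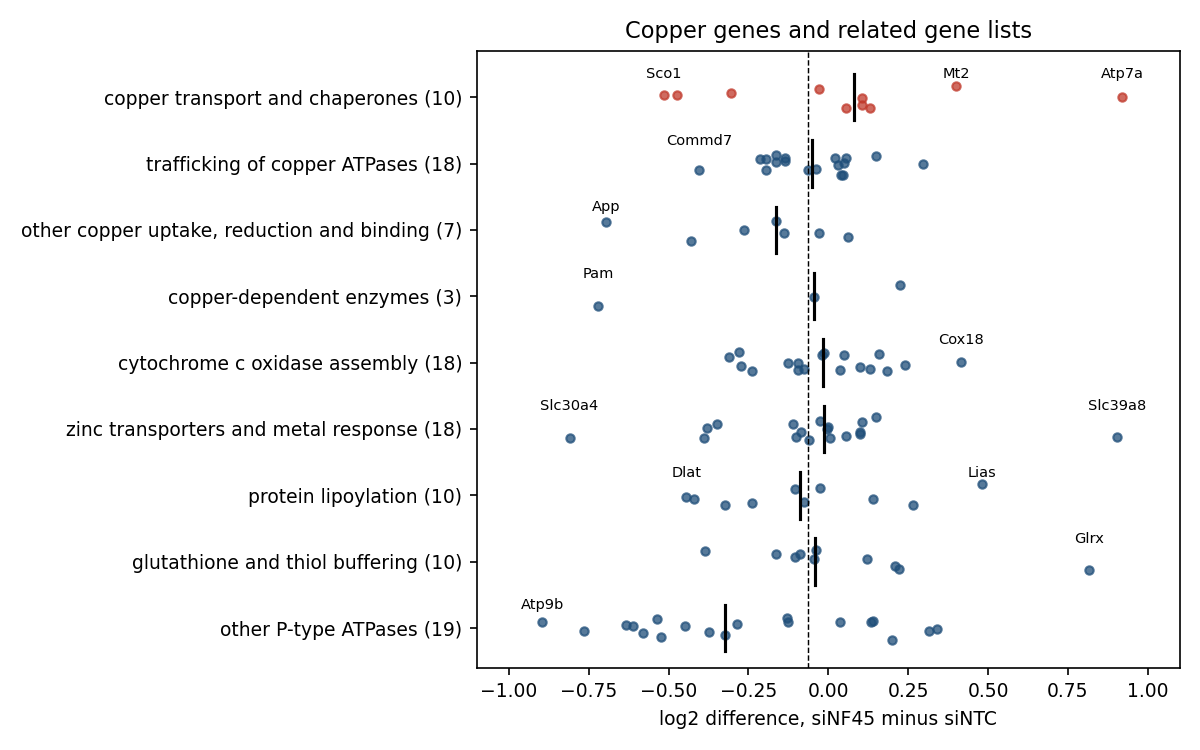
Log2 difference between siNF45 and siNTC (x axis) of each tested gene in the copper group (red) and in the 8 related lists (blue), with the number of genes in brackets, a black bar at each median and a dashed line at the median of all genes tested. Points are spread vertically at random within a row. Slc39a8 lies level with Atp7a, while Pam, App, Slc30a4 and Atp9b lie at the other end.

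The genes next to Atp7a on the X chromosome had lower differences than Atp7a, as did 99.74% of all genes tested. Atp7a was chosen with its difference known, so nothing is read from this order. Of the 3 protein-coding genes on each side in RefSeq, 5 were tested, and none was above 0.15. Pgk1, a glycolytic kinase on one side of Atp7a, read 8.08 and 8.46 in siNTC and 7.54 and 7.30 in siNF45, a difference of -0.85 (SE 0.18, limma adjusted p = 0.129). Cox7b, a cytochrome c oxidase subunit and directly adjacent on the other side, read 6.16 and 6.08 in siNTC and 5.38 and 5.87 in siNF45, a difference of -0.50 (SE 0.19), which was -0.10 when all its probe sets were averaged. Magt1 differed by 0.12 (SE 0.13), Atrx by -0.15 (SE 0.14) and Taf9b by 0.15 (SE 0.14), and Tlr13, adjacent to Atp7a, was below the filter. Signal from processed copies of Pgk1 or Cox7b was not separated here.

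**Figure D4:**
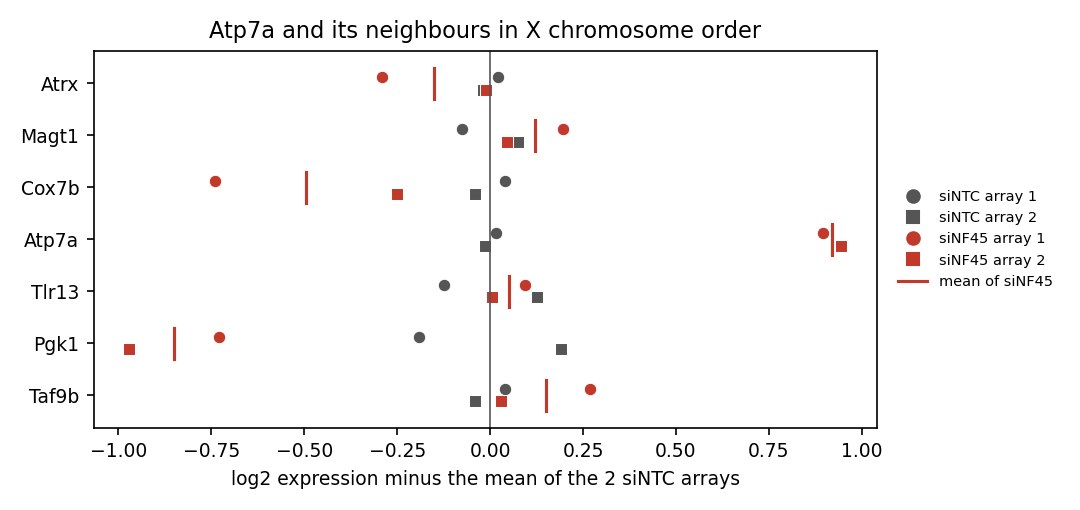
Log2 expression of Atp7a and the 3 protein-coding genes on either side of it, in the order of the X chromosome, on each of the 4 arrays as the distance from the mean of the 2 siNTC arrays (x axis), with grey for siNTC, red for siNF45 and a red bar at the siNF45 mean. Both siNF45 arrays of Atp7a lie far to the right of every neighbour, and those of Pgk1 and Cox7b lie to the left of their siNTC arrays.

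The genes with values most like those of Atp7a over the 4 arrays were found by the root mean square distance between gene-centred log2 values. They were Tmem176a, a membrane protein, at a distance of 0.02, the axon guidance receptor Robo1 at 0.03, 2410021H03Rik at 0.04, C2cd4b at 0.04 and Slc39a8 at 0.04. Their differences between the groups lay between 0.86 for C2cd4b and 0.98 for 2410021H03Rik. With 4 arrays, this likeness is mostly that of the group difference itself.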

How the data were processed

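Total RNA from 4 Beta-TC-6 samples was measured on 1 array each. The authors deposited 1 value for each probe set on each array, taken here as log2. They used Transcriptome Analysis Console, per the submitters' processing notes. Version, summarisation, background correction and log base were not stated there. The values ran from 0.12 to 12.2, the basis for that reading, genes are not centred, the direction follows the sample labels, and the array medians were 1.64, 1.64, 1.66 and 1.66. The number of arrays limits the precision.

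Of 41345 probe sets, 23521 carried 1 gene symbol, 1814 several and 16010 none here. Probe sets with 1 symbol were kept where their mean reached 1.65 (the median over all probe sets), the brightest per gene, leaving 11742 genes. The siNF45 and siNTC arrays were set against each other by limma 3.58.1 under R 4.3.3, using lmFit and eBayes without covariates (2 residual degrees of freedom, prior 3.69). P-values were Benjamini-Hochberg adjusted over all genes, and genes under 0.05 were called. A difference is siNF45 minus siNTC, and SE is the moderated standard error. The script was tested on simulated data.

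The members and lists were chosen with earlier results of these data known. Named were Ilf2, the 10 copper genes, the 3 genes of lowest p in every list, the 5 genes nearest to Atp7a and its 3 neighbours on each side. Alternatives were no filter, a 70th percentile filter, quantile normalization, centring, a trend in eBayes, robust eBayes, a block for the replicate number, averaged probe sets and leaving out each array. No batch was given in the sources used here. Protein sequences were not used here.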

Additional observations from a re-analysis of the deposited data

How the results depend on the processing

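Called genes numbered 10 as designed (1 higher, 9 lower), 87 at the 70th percentile filter (17 and 70), 62 after quantile normalization (18 and 44), 172 after centring each array on the tested genes (71 and 101), 174 when eBayes fitted a trend (40 and 134), and 0 (0 and 0) in each fit that left out 1 array. A fit with the replicate block called 0 (0 and 0), with 1909 genes at an unadjusted p under 0.05 and Ilf2 at -2.17 with a limma adjusted p of 0.258. Deviations of same-numbered arrays from their group means correlated at 0.0062 over genes, which with 2 arrays per group cannot settle pairing. The Atp7a difference was 0.96 after quantile normalization and 1.05 after centring, and ranged from 0.90 to 0.95 without 1 array. Its distance above the median of the other 9 genes ranged from 0.83 to 0.95 without 1 array. Of 120 alternative values of the 10 genes, 113 kept their sign, a count that overstates how stable they were. The other filters, a trend, robust eBayes, the replicate block and averaged probe sets could not change these values, as each gene had 1 probe set. Slc31a1 turned to 0.0262 after quantile normalization and 0.10 after centring and ranged from -0.225 to 0.165 without 1 array, Atp7b from -0.055 to 0.165 and Mt1 from -0.03 to 0.24.

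In the zinc list, 2 members were called at the 70th percentile filter and with a trend (Slc39a8 and Slc30a4), and 1 after quantile normalization and after centring (Slc39a8). Glrx was called after centring and with a trend, 1 in its list each time, and Pam and Pgk1 with a trend, 1 in each list. Over all genes tested, 87 of 7977 were called at the 70th percentile filter. Of 11742 genes, 62 were called after quantile normalization, 172 after centring and 174 with a trend. List medians near 0 turned above 0: trafficking to 0.0012 and 0.0775, oxidase assembly to 0.0319 and 0.1125, zinc to 0.0438 and 0.115 and glutathione to 0.0191 and 0.0875 after quantile normalization and centring in that order, lipoylation to 0.04 and copper enzymes to 0.085 after centring, oxidase assembly to 0.0425 at the 70th percentile filter and copper enzymes to 0.05 without a filter. Over all genes tested, the median was -0.065 as designed, -0.0175 after quantile normalization and 0.065 after centring. It was -0.005 without a filter and -0.075 at the 70th percentile filter. Without 1 array, the list medians ranged from -0.20 to 0.11 for enzymes, from -0.0875 to 0.025 for zinc and from -0.12 to 0.0625 for glutathione. The median of other copper uptake, reduction and binding genes was -0.035 after centring. Centring added 0.13 to the difference of every gene, and so to each list median. The cause of the other changes in both paragraphs, the numbers of called genes included, was not tested.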

Other observations

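Of the 17 copper-dependent enzymes, 13 had a probe set below the filter and were not tested. Their values lay between 0.84 and 2.19 on the log2 scale on all 4 arrays, and their differences between -0.84 and 0.21. The lowest was that of Dbh, the copper enzyme that makes noradrenaline, which read 2.19 and 1.82 in siNTC and 1.25 and 1.08 in siNF45, named after its values were seen. The connective tissue cross-linking enzyme Lox read 0.84 and 1.12 in siNTC and 1.03 and 1.32 in siNF45, and the plasma ferroxidase ceruloplasmin (Cp) read 1.19 and 1.00 in siNTC and 1.58 and 1.03 in siNF45.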
